A study of Mus musculus with 8 samples.

Results

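Receptors for amines, angiotensin II, nucleotides and vasoactive peptides were compared between the fetal mouse ductus arteriosus and aorta. The receptor genes were chosen by symbol: the adrenergic, serotonin, muscarinic, histamine, angiotensin, vasopressin, bradykinin, tachykinin and protease-activated receptors and the P2X and P2Y nucleotide receptors. Of 18193 genes measured by a probe set that carries a single gene symbol, 52 had such a symbol, and where a gene had several probe sets, the brightest on average over the 8 arrays stood for it. They comprised 13 serotonin, 9 P2Y, 7 P2X, 4 histamine and 2 bradykinin receptor genes. There were 3 each of the angiotensin, muscarinic, tachykinin, vasopressin and protease-activated receptor genes. The adrenergic genes were 1 alpha1 and 1 alpha2, and no beta adrenergic gene was among the 52.

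The ductus arteriosus carries blood from the pulmonary artery into the aorta before birth, bypassing the lungs, and it constricts and closes afterwards. In the study it was compared with segments of the aorta. Both groups came from untreated CD88 wild type mice (strain label CD88) on day 19 of gestation. Each of the 4 ductus arrays and 4 aorta arrays held RNA pooled from up to 10 pups, standing for a single pregnant female, and the replicates are labelled as biological. The values are log2 expression values from robust multi-array averaging (RMA), so a difference of 1 is a doubling of the hybridisation signal.

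Most of these receptors are coupled to G proteins and sit on the cell surface. Those that act through Gq activate phospholipase C beta, release calcium and contract smooth muscle, those that act through Gs raise cyclic AMP and relax it, and those that act through Gi lower cyclic AMP. The P2X receptors and the serotonin receptors of the Htr3 class are ligand-gated cation channels instead. In arteries such receptors set the response to circulating angiotensin, to transmitters from nerves and to nucleotides and proteases released by blood cells and endothelium.

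Markers of several cell types differed between the tissues. Pearson correlations between arrays over all genes were 0.986 to 0.992 within a tissue and 0.979 to 0.987 between tissues, ranges that overlap. Of 8 smooth muscle markers, 3 were higher and 0 lower in the ductus, with a mean level per array of 10.09 to 10.57 in the ductus and 9.10 to 9.76 in the aorta. Of 8 mesothelial markers 0 were higher and 7 lower in the ductus, with array means of 6.40 to 7.03 in the ductus and 7.89 to 9.36 in the aorta. Of 8 endothelial markers 0 were higher and 3 lower, with array means of 7.64 to 7.81 in the ductus and 8.20 to 8.56 in the aorta. Since whole vessel segments were used, fewer cells of a type and less RNA per cell cannot be told apart in any difference below.

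Of the 52 receptor genes, 2 were higher in the ductus (Agtr1b and P2rx7) and 2 were lower (P2rx5 and Agtr1a) at a limma adjusted p under 0.05. The other 48 did not pass the test, with log2 differences of -1.01 to 1.17, ductus minus aorta. Called genes made up 7.69% of the receptor genes and 3.86% of all genes. By direction, 3.85% of the receptor genes were called higher, against 1.80% of all genes, and 3.85% were called lower, against 2.06% of all genes. An unadjusted p under 0.05 was reached by 9 receptor genes (17.3%) and by 16.1% of all genes, so at that threshold the receptor genes lay near the background. The 8 arrays limit the precision: the 95% interval of a receptor gene's difference reached a median of 0.32 to either side.

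Many of these receptors gave little signal. Without a detection call for these arrays, each array's first quartile over all probe sets, 2.74 to 2.86, was taken as a low reference level. Both tissue means lay below 2.86 for 22 of the 52 receptor genes (42.3%), against 18.2% of all genes. Of those 22 genes, 0 were called and the differences were -0.23 to 0.33. The 4 called genes were among the other 30, whose differences were -1.58 to 1.17. A gene at the low level is not shown to be absent, and a fold against such a level is not exact.

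**Figure D1:**
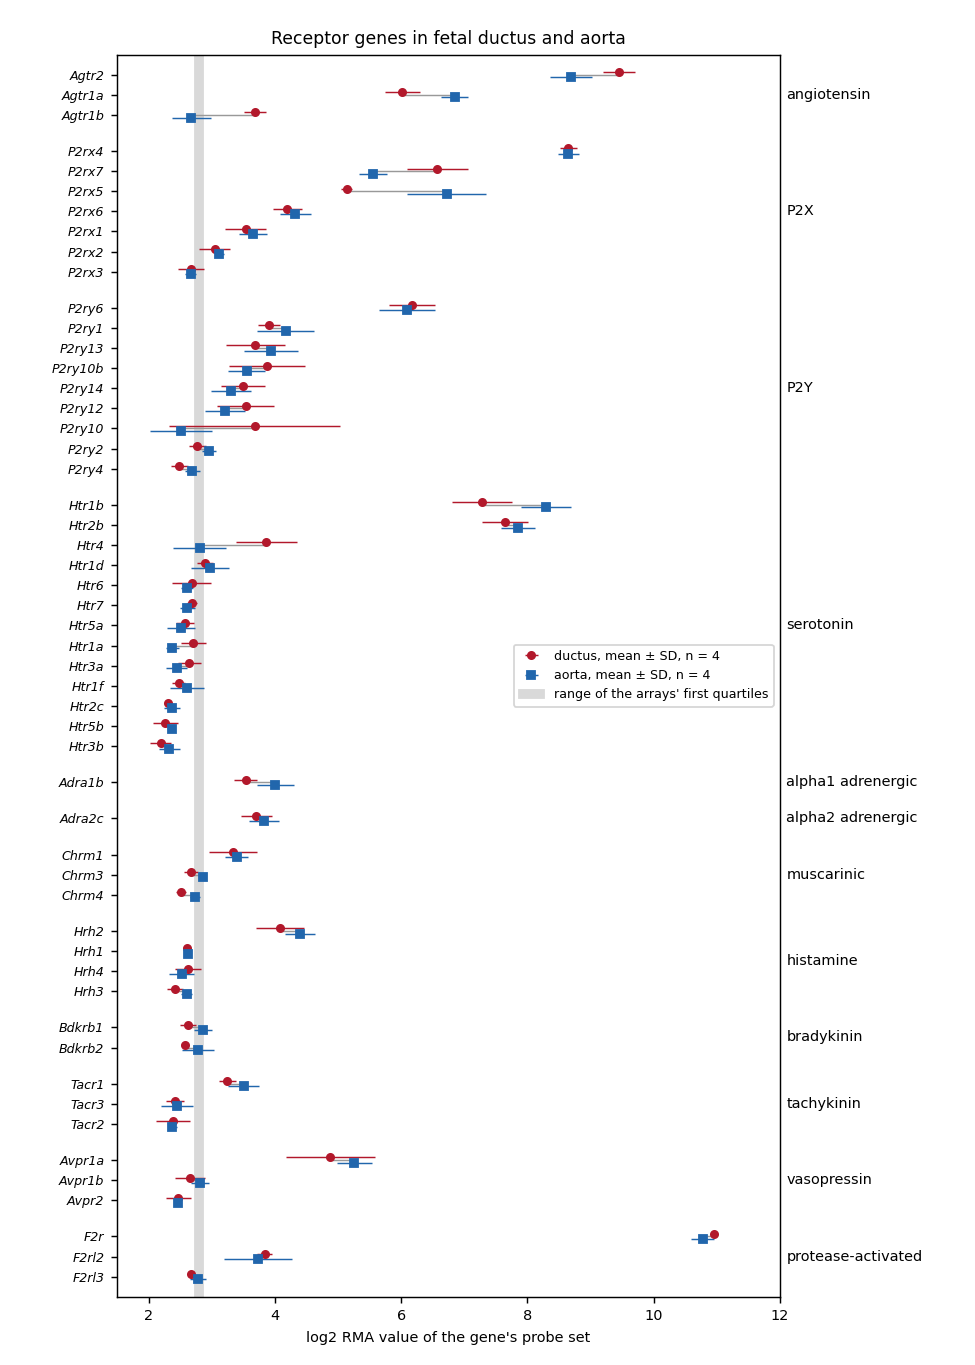
Mean log2 RMA value (horizontal axis) of each receptor gene in the ductus (red circles) and the aorta (blue squares), with SD over 4 arrays as bars, grouped by receptor family. The grey band is the range of the arrays' first quartiles, 2.74 to 2.86, in or below which 22 of the 52 genes had both tissue means.

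For 3 of 3 angiotensin receptor genes the ductus and aorta arrays did not overlap, with 1 gene higher in the ductus, 1 lower and 1 that missed the threshold. Over the whole set, the tissues did not overlap for 10 of 52 receptor genes (19.2%), against 11.3% of all genes. Rodents carry a pair of type 1 angiotensin II receptor genes, Agtr1a and Agtr1b, whose near-identical products act through Gq to constrict vessels and promote growth. Agtr1a is the main form in the blood vessels of adult mice. Agtr2 encodes the type 2 receptor, which is abundant in fetal tissue and opposes many actions of the type 1 receptor.

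Agtr1a was lower in the ductus, with log2 values of 6.09, 5.74, 6.37 and 5.88 on the ductus arrays and 6.72, 7.11, 6.63 and 6.93 on the aorta arrays. All 4 ductus arrays lay below all 4 aorta arrays. The difference was -0.83 ± 0.163 (SE), a level 1.78-fold lower in the ductus (adjusted p = 0.0222). The call was lost when any of ductus replicates 1, 2 or 4 or aorta replicates 2 or 4 was left out, with differences of -0.85 to -0.74 and adjusted p of 0.0563 to 0.073.

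Agtr1b ran the other way. Its log2 values were 3.70, 3.59, 3.52 and 3.93 on the ductus arrays and 2.73, 3.09, 2.40 and 2.49 on the aorta arrays. Every ductus array was above every aorta array, and the aorta mean of 2.68 ± 0.304 (SD, n = 4) was below the first quartile of every array. The difference was 1.01 ± 0.165 (SE), corresponding to a 2.01-fold higher signal in the ductus (adjusted p = 0.00906). It passed the test without each of the 8 arrays in turn, with differences of 0.92 to 1.14. Whether probes of either type 1 gene also bind the other gene's transcript was not tested, and the Agtr1a and Agtr1b values had opposite signs.

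Agtr2 had log2 values of 9.43, 9.58, 9.09 and 9.67 on the ductus arrays and 8.21, 8.96, 8.81 and 8.78 on the aorta arrays. Each ductus array was above each aorta array. The difference of 0.75 ± 0.187 (SE), with a 95% interval of 0.33 to 1.17, did not pass the threshold (adjusted p = 0.0617). The adjusted p was 0.0456 without ductus replicate 3 and 0.0768 to 0.165 without any other single array. It was 0.0267 with an intensity trend and a robust prior together in limma. Array means of the smooth muscle markers given above were higher in the ductus, as were those of Agtr1b and Agtr2. Those of the endothelial and mesothelial markers were lower in the ductus, as was Agtr1a, and the 7 fibroblast markers (0 called) had array means of 9.35 to 9.42 in the ductus, against 9.52 to 9.82 in the aorta. The part of these cells in the angiotensin receptor values was not tested.

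The promoters of Agtr1b, Agtr2 and P2rx7, described below, are shown. Each of these genes had a positive difference beside a close relative that did not, a trait that other receptor genes shared. No promoter entry was found for Agtr1a and P2rx5, the 2 genes called lower. The sequences shown are the 250 bases before the annotated start, 5′ to 3′ on the gene's strand, from RefSeq on build GRCm38.p6. P2rx7 is shown at the first of its 2 listed starts. Capitals mark TATAAA (the TATA box core) and GGGCGG (the core of the GC box) on either strand.
Agtr1b, chr3:20367178-20367427, minus strand: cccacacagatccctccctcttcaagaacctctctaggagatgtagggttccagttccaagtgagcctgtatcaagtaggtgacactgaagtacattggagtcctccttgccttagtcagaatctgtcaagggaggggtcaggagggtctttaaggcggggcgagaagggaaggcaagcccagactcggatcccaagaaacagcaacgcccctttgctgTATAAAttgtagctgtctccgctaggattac
Agtr2, chrX:21484374-21484623, plus strand: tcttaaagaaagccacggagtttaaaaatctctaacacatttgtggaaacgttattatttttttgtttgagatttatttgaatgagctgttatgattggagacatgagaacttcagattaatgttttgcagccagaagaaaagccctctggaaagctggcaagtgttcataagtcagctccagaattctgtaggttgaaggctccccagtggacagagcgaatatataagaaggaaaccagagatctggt
P2rx7, chr5:122643677-122643926, plus strand: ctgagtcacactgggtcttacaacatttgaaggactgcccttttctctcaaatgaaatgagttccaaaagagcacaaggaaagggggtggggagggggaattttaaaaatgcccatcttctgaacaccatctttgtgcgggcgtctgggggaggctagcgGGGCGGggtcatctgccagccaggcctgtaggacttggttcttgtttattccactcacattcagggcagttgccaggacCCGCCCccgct
The Agtr1b promoter held 1 TATAAA, starting 31 bases before the transcript start. The Agtr2 promoter held neither motif, and the P2rx7 promoter held 2 GGGCGG matches, 1 on each strand. Only the exact letters TATAAA were searched, so the like stretch tatataag near the end of the Agtr2 window was not counted. Of 32851 promoters of this length, 12.4% held TATAAA and 32.7% held GGGCGG. Of the 55 listed promoters of 40 receptor genes, 7 held TATAAA and 18 held GGGCGG. GCCNNNGGC, a motif of the AP-2 factors, and the CArG box bound by serum response factor were searched on both strands as well. Neither was found in these 3 windows, against 13.7% and 1.47% of all promoters, and 8 and 0 of the receptor promoters held them. Overlaps between motifs were allowed, and a match describes letters only.

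**Figure D2:**
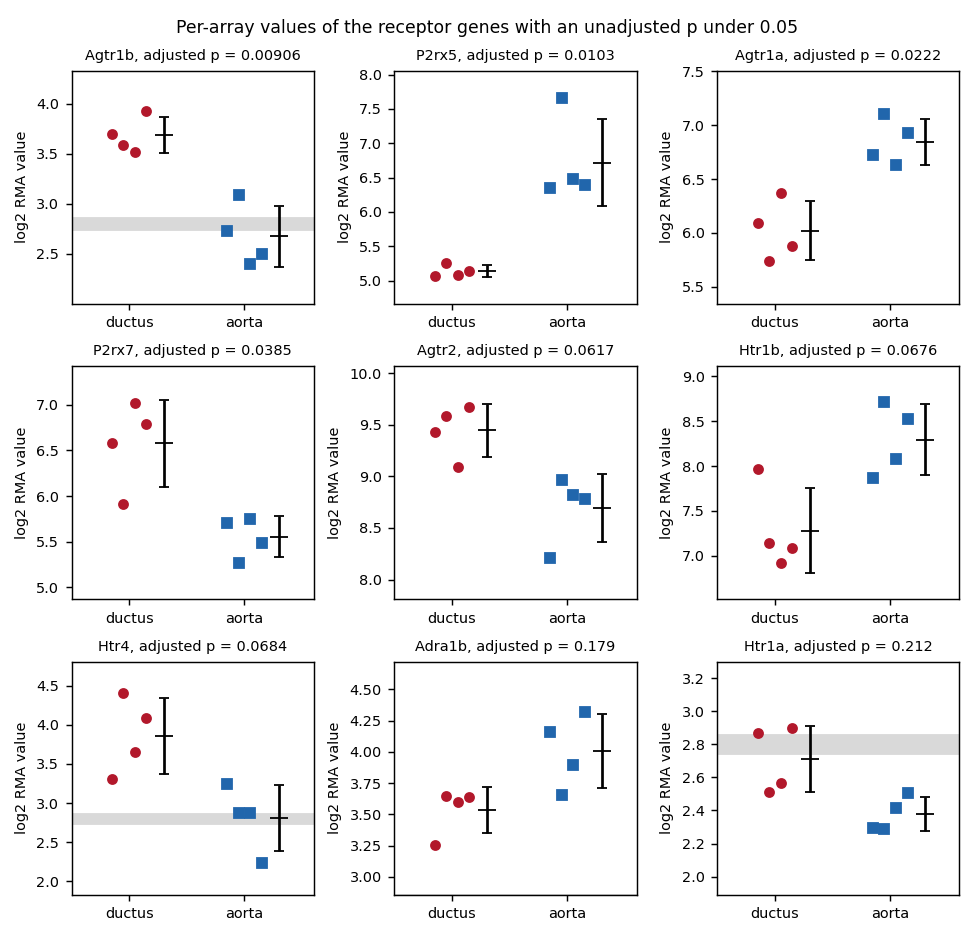
Log2 RMA value (vertical axes, each on its own scale) on every array for the 9 receptor genes with an unadjusted p under 0.05, ductus (red circles, left) and aorta (blue squares, right), with the mean and SD of 4 arrays beside them. The grey band, where in range, spans the arrays' first quartiles, and Htr1b is the 1 gene of the 9 whose tissues overlap.

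Among the 7 P2X genes, 1 was higher in the ductus, 1 was lower and 5 did not pass the test. P2rx5 encodes an ATP-gated channel subunit known from developing skeletal muscle and excitable tissues. Its log2 values were 5.06, 5.26, 5.08 and 5.14 on the ductus arrays and 6.35, 7.66, 6.48 and 6.39 on the aorta arrays. The ductus arrays lay close together and below every aorta array, and aorta replicate 2 stood above the other aorta arrays. The difference was -1.58 ± 0.267 (SE), a 3.00-fold lower level in the ductus (adjusted p = 0.0103). Without aorta replicate 2 it was -1.27, with an adjusted p of 0.000806. The mesothelial and endothelial markers given above were also lower in the ductus. Among aorta arrays they were highest on replicate 1, at 9.36 and 8.56, where P2rx5 was 6.35. On aorta replicate 2, where P2rx5 was 7.66, they were 8.44 and 8.53. Array means of the 10 striated muscle markers overlapped, at 4.62 to 6.43 in the ductus and 4.45 to 5.33 in the aorta. The part of any of these cells in the P2rx5 difference was not tested.

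P2rx7 encodes the P2X channel that opens at high extracellular ATP and is known from macrophages, other immune cells and glia. Its log2 values were 6.58, 5.91, 7.02 and 6.79 on the ductus arrays and 5.71, 5.27, 5.75 and 5.49 on the aorta arrays. No ductus array overlapped an aorta array. The difference was 1.02 ± 0.226 (SE), a 2.03-fold higher level in the ductus (adjusted p = 0.0385). The call was lost on leaving out any array other than ductus replicate 2 (differences 0.87 to 1.09, adjusted p of 0.0561 to 0.114), and without ductus replicate 2 the difference was 1.24 (adjusted p = 0.00556).

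Markers of cells that can carry P2rx7 were read beside it. Of 8 macrophage markers 0 were called, with array means of 6.98 to 7.84 in the ductus and 7.53 to 7.80 in the aorta, which overlapped. Of 6 Schwann cell and glial markers 2 were higher and 0 lower in the ductus, with array means of 4.49 to 4.74 in the ductus and 4.11 to 4.32 in the aorta. The mean of Foxd3 over the 8 arrays lay below every array's first quartile. The 10 striated muscle markers (0 called higher, 1 lower) had array means of 5.15, 4.62, 6.43 and 4.82 on ductus replicates 1 to 4 and 4.98, 4.45, 4.54 and 5.33 on aorta replicates 1 to 4. Like the P2rx7 probe set used, they were highest on ductus replicate 3, and within each tissue lowest on replicate 2. The 6 airway epithelium markers (1 called higher, 0 lower) were likewise highest on ductus replicate 3 and lowest on replicate 2 of each tissue, with array means of 5.36, 4.34, 5.69 and 4.50 on ductus replicates 1 to 4 and 3.96, 3.72, 3.81 and 4.81 on aorta replicates 1 to 4. The smooth muscle mean, too, was highest of all arrays on ductus replicate 3, at 10.57. In the ductus the smooth muscle, macrophage, glial and endothelial means were lowest on replicate 2, at 10.09, 6.98, 4.49 and 7.64. Mast cell and platelet markers were lowest there too, at 5.38. The fibroblast and mesothelial means were lowest on ductus replicates 1 and 4, at 9.35 and 6.40. Among aorta arrays the smooth muscle and macrophage means were highest on replicate 2, at 9.76 and 7.80. On that array the P2rx7 probe set used was lowest, at 5.27. The glial mean was lowest in the aorta on replicate 3, at 4.11, where that probe set gave 5.75. The striated muscle and airway means peaked in the aorta on replicate 4, at 5.33 and 4.81, where that probe set gave 5.49. Another P2rx7 probe set ran from 6.37 on replicate 2 to 6.88 on replicate 3 in the ductus. In the aorta it ran from 4.04 on replicate 4 to 5.99 on replicate 2. The part of any of these cells in the P2rx7 difference was not tested.

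P2rx4, an ATP-gated channel known from endothelium and macrophages, is the neighbouring gene of P2rx7 on chromosome 5, with 0 protein-coding genes between them in the annotation of GRCm38.p6. Its log2 values were 8.67, 8.49, 8.81 and 8.61 on the ductus arrays and 8.57, 8.69, 8.48 and 8.86 on the aorta arrays. The tissues overlapped throughout, and the difference was -0.01 with a 95% interval of -0.28 to 0.27 (adjusted p = 0.989). P2rx1, the subunit best known for ATP-driven contraction of arterial smooth muscle, lies 4 protein-coding genes from P2rx5 on chromosome 11. It had values of 3.72, 3.61, 3.75 and 3.07 on the ductus arrays and 3.90, 3.49, 3.47 and 3.76 on the aorta arrays. These overlapped as well, with a difference of -0.12 (adjusted p = 0.814).

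Several probe sets existed for 21 of the 52 genes, 50 in all, and for 10 of these genes the probe sets differed in sign. P2rx7 had 3 probe sets. The second gave 6.54, 6.37, 6.88 and 6.58 on the ductus arrays and 5.38, 5.99, 5.78 and 4.04 on the aorta arrays. It had no overlap and a difference of 1.29 ± 0.366 (SE), and did not pass when all 45037 probe sets were tested (adjusted p = 0.124). The third had tissue means of 2.83 in the ductus and 2.85 in the aorta, near the first quartile, with a difference of -0.02. In that test over probe sets, 4 of the 81 receptor probe sets were called (4.94%, against 2.46% of all probe sets), those representing Agtr1a, Agtr1b, P2rx5 and P2rx7, the last with an adjusted p of 0.0498. One of 4 P2rx4 probe sets differed from the set that represents the gene, with values of 6.06, 6.37, 5.88 and 5.91 on the ductus arrays and 5.63, 5.44, 5.65 and 5.23 on the aorta arrays. It did not overlap between the tissues, with a difference of 0.57 (adjusted p = 0.0964 over probe sets), while the other 3 gave -0.01, 0.07 and -0.23.

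**Figure D3:**
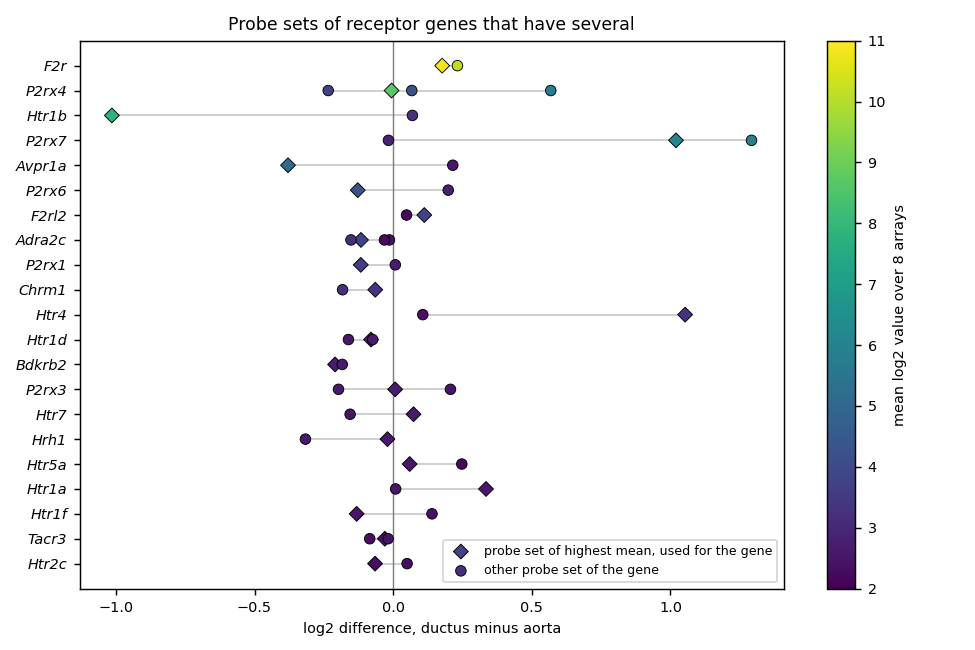
Log2 difference, ductus minus aorta (horizontal axis), of every probe set of the 21 receptor genes that have several. Diamonds are the probe sets used for the genes, circles the others, and colour gives the mean log2 value over 8 arrays; 2 of the 3 P2rx7 probe sets lie above 1 and the third near 0.

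None of the 9 P2Y genes, which encode G protein-coupled receptors for nucleotides and related ligands, passed the test, and 0 of 9 had an unadjusted p under 0.05. P2ry6, the UDP receptor, had values of 6.09, 5.77, 6.65 and 6.17 on the ductus arrays and 6.23, 6.14, 5.47 and 6.53 on the aorta arrays. They overlapped, and the difference was 0.08 with a 95% interval of -0.47 to 0.63. P2ry1, an ADP receptor of platelets and endothelium, gave 3.71, 4.02, 4.08 and 3.80 on the ductus arrays and 4.19, 4.06, 3.68 and 4.77 on the aorta arrays. The difference was -0.27 with an interval of -0.75 to 0.20, and the tissues overlapped.

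P2ry10, a receptor of lymphoid cells for lysophospholipids, had the largest difference of the family and the widest spread. Its values were 5.46, 3.21, 3.80 and 2.24 on the ductus arrays and 2.47, 2.00, 2.41 and 3.17 on the aorta arrays. The ductus arrays covered the whole range of the aorta values above 2.24, and the difference of 1.17 ± 0.578 (SE) had an interval of -0.13 to 2.47 (adjusted p = 0.366). It was 0.57 without ductus replicate 1 and 1.64 without ductus replicate 4. The array means of 6 thymocyte and T cell markers, of which 0 were called, were 7.59, 5.68, 6.26 and 4.00 on ductus replicates 1 to 4 and 5.14, 4.01, 3.40 and 6.88 on aorta replicates 1 to 4. Both were highest on ductus replicate 1, lowest among ductus arrays on replicate 4 and highest among aorta arrays on replicate 4, and the part of these cells in the P2ry10 values was not tested. The adjacent P2ry10b on the X chromosome gave a difference of 0.32 (adjusted p = 0.647).

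The 13 serotonin receptor genes included none that passed the test, while 3 had an unadjusted p under 0.05 and 9 had both means below 2.86. Htr1b encodes a Gi-coupled receptor that constricts cranial arteries and is the target of the triptans. Its log2 values were 7.97, 7.14, 6.92 and 7.09 on the ductus arrays and 7.86, 8.71, 8.08 and 8.53 on the aorta arrays. Ductus replicate 1 lay within the aorta range and the other 3 ductus arrays lay below it. The difference was -1.01 ± 0.259 (SE), with a 95% interval of -1.60 to -0.43 (adjusted p = 0.0676). Without ductus replicate 1 it was -1.24, with an adjusted p of 0.0195. Without any other single array it was -1.16 to -0.88, with an adjusted p of 0.0589 to 0.172. A second Htr1b probe set, with tissue means of 3.33 in the ductus and 3.26 in the aorta, gave a difference of 0.07.

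Htr4 encodes a Gs-coupled receptor known from gut, brain and atrial muscle. It had values of 3.30, 4.41, 3.66 and 4.08 on the ductus arrays and 3.25, 2.88, 2.87 and 2.23 on the aorta arrays. The tissues did not overlap, although ductus replicate 1 exceeded aorta replicate 1 by little. The difference was 1.05 ± 0.27 (SE), with an interval of 0.45 to 1.66, and did not pass the threshold (adjusted p = 0.0684). Without ductus replicate 1 it was 1.24 (adjusted p = 0.0468), and without any other single array 0.86 to 1.20 (adjusted p of 0.0615 to 0.175). A second probe set, with means of 2.42 in the ductus and 2.31 in the aorta, gave 0.11.

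Htr2b, a Gq-coupled receptor needed for heart development, had values of 7.17, 8.04, 7.59 and 7.76 on the ductus arrays and 8.18, 7.88, 7.81 and 7.52 on the aorta arrays. These overlapped, with a difference of -0.20 and an interval of -0.66 to 0.25 (adjusted p = 0.692). Htr1a, a Gi-coupled receptor of neurons, had values of 2.87, 2.51, 2.57 and 2.90 on the ductus arrays and 2.30, 2.29, 2.41 and 2.50 on the aorta arrays. All 4 ductus values were above the aorta values, at a level about the first quartile, and the difference of 0.33 did not pass (adjusted p = 0.212). A second Htr1a probe set of like brightness gave a difference of 0.009, and its tissues overlapped. The adjacent Htr3a and Htr3b, which encode channel subunits, gave differences of 0.20 and -0.14 with adjusted p of 0.528 and 0.684.

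The other amine receptors gave no called gene. Only Adra1b and Adra2c stood for the adrenergic receptors, and only Chrm1, Chrm3 and Chrm4 for the muscarinic ones. No beta adrenergic gene had a probe set listed with a single symbol, so nothing is known of these receptors here. Whether probe sets that were not listed, or listed with several symbols, measure them was not checked. Adra1b, an alpha1 adrenergic receptor through which noradrenaline contracts smooth muscle, had values of 3.26, 3.65, 3.60 and 3.64 on the ductus arrays and 4.16, 3.65, 3.89 and 4.32 on the aorta arrays. The highest ductus array and the lowest aorta array nearly met without overlapping, and the difference was -0.47 with an interval of -0.84 to -0.10 (adjusted p = 0.179). Adra2c, an alpha2 receptor that acts through Gi, gave 3.35, 3.86, 3.81 and 3.82 on the ductus arrays and 3.56, 3.69, 3.98 and 4.06 on the aorta arrays, with a difference of -0.12 and an interval of -0.47 to 0.24. Of the 9 autonomic neuron and chromaffin markers 0 were higher and 1 lower in the ductus, and Chrna3, Phox2a, Slc18a3 and Th had means below every array's first quartile.

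All 3 muscarinic genes had small negative differences that did not pass. Chrm3, the Gq-coupled receptor of smooth muscle and endothelium, had values of 2.75, 2.75, 2.52 and 2.65 on the ductus arrays and 2.89, 2.85, 2.80 and 2.92 on the aorta arrays. Chrm4, which acts through Gi, had values of 2.54, 2.54, 2.41 and 2.59 on the ductus arrays and 2.62, 2.72, 2.78 and 2.80 on the aorta arrays. Neither overlapped between the tissues, both lay near the first quartile, and the differences were -0.19 (adjusted p = 0.378) and -0.21 (adjusted p = 0.329). Chrm1, a Gq-coupled receptor of neurons, differed by -0.06 (adjusted p = 0.912).

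Hrh2, the Gs-coupled histamine receptor, had values of 3.78, 4.52, 3.74 and 4.29 on the ductus arrays and 4.32, 4.15, 4.71 and 4.41 on the aorta arrays. They overlapped, with a difference of -0.32 and an interval of -0.76 to 0.13 (adjusted p = 0.496). Hrh1, the Gq-coupled histamine receptor, averaged 2.60 on the ductus arrays, against 2.62 on the aorta arrays, a difference of -0.02 (adjusted p = 0.942). A second Hrh1 probe set of like brightness averaged 2.44 on the ductus arrays, against 2.76 on the aorta arrays. Its tissues did not overlap, and the difference of -0.32 did not pass over all probe sets (adjusted p = 0.273).

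The peptide receptors other than the angiotensin receptors likewise held no called gene. Avpr1a, the Gq-coupled vasopressin receptor of vascular smooth muscle, had values of 4.60, 4.73, 5.89 and 4.29 on the ductus arrays and 5.001, 5.60, 5.36 and 5.07 on the aorta arrays. Ductus replicate 3 was above every aorta array and the other 3 ductus arrays were below every aorta array. The difference was -0.38 ± 0.313 (SE), with an interval of -1.08 to 0.32 (adjusted p = 0.625). It was -0.72 without ductus replicate 3 (adjusted p = 0.0828) and -0.18 without ductus replicate 4. The smooth muscle, striated muscle and airway epithelium markers were each highest on ductus replicate 3, at 10.57, 6.43 and 5.69. The part of any of these cells in the Avpr1a value on that array was not tested. Avpr1b, known from the pituitary, differed by -0.16 (adjusted p = 0.651).

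The bradykinin receptor genes Bdkrb2 and Bdkrb1 are adjacent on chromosome 12 and act through Gq, the first present in vessels at rest and the other induced by inflammation. Bdkrb2 averaged 2.57 ± 0.058 in the ductus and 2.78 ± 0.247 in the aorta (SD, n = 4 each), and Bdkrb1 averaged 2.62 ± 0.126 in the ductus and 2.86 ± 0.142 in the aorta. Both lay at the low level, and their differences of -0.21 and -0.23 did not pass (adjusted p = 0.499 and 0.362). Tacr1, the substance P receptor, had values of 3.37, 3.28, 3.28 and 3.06 on the ductus arrays and 3.60, 3.15, 3.58 and 3.71 on the aorta arrays. They overlapped, with a difference of -0.26 (adjusted p = 0.407). Tacr3, the neurokinin B receptor, differed by -0.03 (adjusted p = 0.946).

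F2r encodes the thrombin receptor PAR1, which acts through Gq and other G proteins on smooth muscle and endothelium. Its values were 10.95, 10.91, 10.94 and 11.01 on the ductus arrays and 10.51, 10.79, 10.88 and 10.92 on the aorta arrays. Aorta replicate 4 lay within the ductus range and the other aorta arrays below it. The difference was 0.18 with an interval of -0.08 to 0.43 (adjusted p = 0.508), and the gene's other probe set gave 0.23. F2rl2, which encodes the PAR3 protein and lies 1 protein-coding gene from F2r on chromosome 13, differed by 0.11 with an interval of -0.42 to 0.64 (adjusted p = 0.87).

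**Figure D4:**
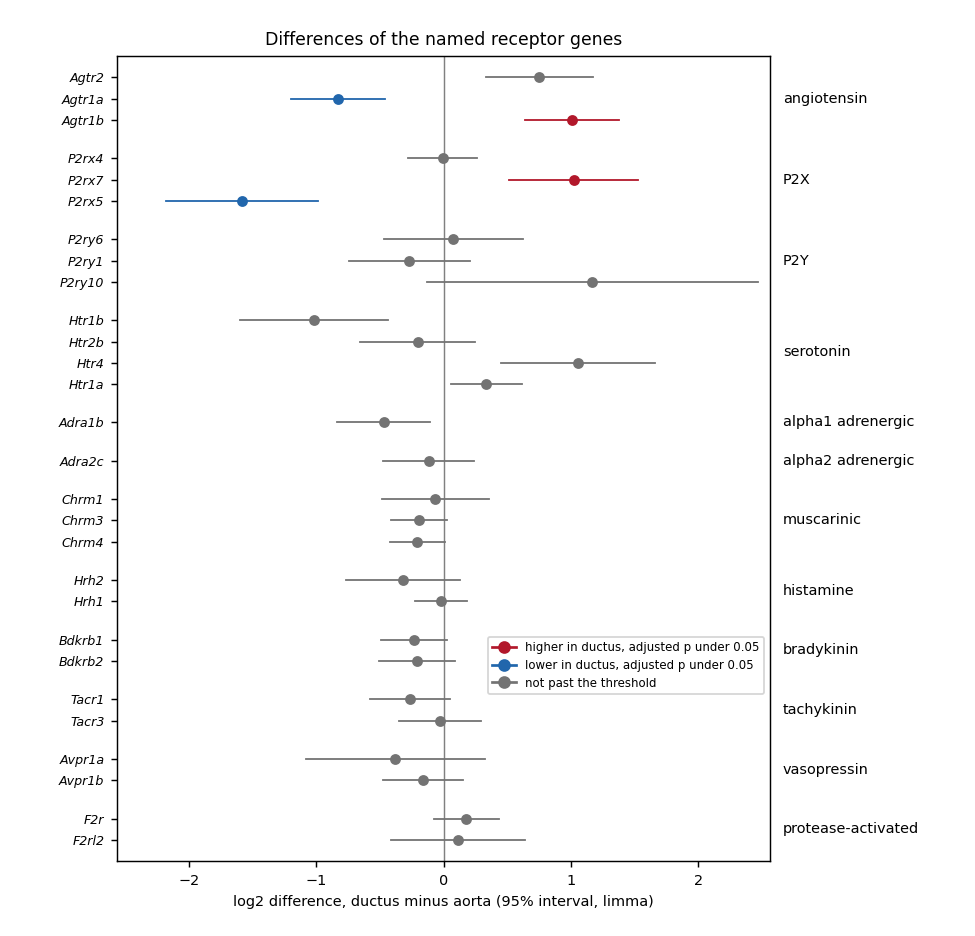
Log2 difference, ductus minus aorta (horizontal axis), with limma's 95% interval for the 28 receptor genes named by rule, grouped by family. Red marks the 2 genes higher in the ductus (Agtr1b and P2rx7), blue the 2 lower (P2rx5 and Agtr1a), and grey the others; the P2ry10 interval is the widest shown, from -0.13 to 2.47.

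The 24 receptor genes outside the naming rule (P2rx1, P2ry10b, Htr3a and Htr3b among them) had differences of -0.25 to 0.32 and adjusted p of 0.396 to 0.989. Their mean levels over the 8 arrays were 2.26 to 4.26. The family medians of the larger families were -0.08 for P2X, 0.08 for P2Y and -0.07 for serotonin receptors, against -0.08 over all 52 receptor genes and -0.03 over all 18193 genes. Differences were positive for 20 receptor genes and negative for 32, beside 8001 positive and 10192 negative over all genes.

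Genes that make, clear or transmit the receptors' ligands and signals were read from 11 lists with 91 measured genes, of which 4 were higher and 4 lower in the ductus (8.79%, beside 3.86% of all genes). Their median difference was -0.07. The lists for amine handling held 0 called genes: 11 for catecholamines, 4 for serotonin, 5 for acetylcholine and 3 for histamine. Their list medians were -0.11, -0.17, -0.07 and 0.20 in that order. Slc18a2, the vesicular monoamine transporter, had values of 5.26, 4.56, 4.61 and 5.04 on the ductus arrays and 3.96, 3.69, 4.62 and 3.97 on the aorta arrays. Aorta replicate 3 reached into the ductus range, and the difference of 0.81 did not pass (adjusted p = 0.091). Bche, the plasma-type cholinesterase, had a difference of -0.85 with overlapping tissues (adjusted p = 0.0819).

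In the peptide lists, enzymes that cut vasoactive peptides were among the called genes. Cpm encodes carboxypeptidase M, which removes the terminal arginine of kinins and so yields ligands of the B1 bradykinin receptor. Its values were 6.17, 5.94, 7.02 and 6.35 on the ductus arrays and 3.01, 3.19, 2.77 and 3.36 on the aorta arrays. The tissues stood far apart, with a difference of 3.29 ± 0.228 (SE), 9.76-fold higher in the ductus (adjusted p = 8.19e-05). Mme, which encodes neprilysin, an enzyme that degrades angiotensin, kinin and tachykinin peptides, had values of 4.38, 4.42, 4.61 and 4.48 on the ductus arrays and 3.79, 3.57, 4.11 and 3.76 on the aorta arrays. It was higher in the ductus without overlap, by 0.67 (1.59-fold, adjusted p = 0.0215). Of 10 renin-angiotensin genes it was the 1 called, and the list's median was -0.05.

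Tac2, the mouse gene for the neurokinin B precursor, was lower in the ductus. It had values of 2.74, 3.18, 3.22 and 3.20 on the ductus arrays and 4.05, 4.34, 3.49 and 4.48 on the aorta arrays, without overlap. Its ductus mean of 3.09 lay near the arrays' first quartiles. The level was 2.00-fold lower in the ductus, with a 95% interval of the log2 difference of -1.49 to -0.52 (adjusted p = 0.0338). With Cpm it was the called part of the 11 kinin, tachykinin and vasopressin genes, whose median was -0.22, and the means of Tac1 and Tac4 over the 8 arrays lay below every array's first quartile.

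Among 7 partners of the protease-activated receptors, 1 was higher and 1 lower. F3 encodes tissue factor, which starts the clotting cascade that generates thrombin. Its values were 6.77, 6.82, 6.79 and 7.08 on the ductus arrays and 3.69, 4.20, 4.10 and 4.28 on the aorta arrays. The tissues did not overlap, with a difference of 2.80 ± 0.147 (SE), 6.95-fold higher in the ductus (adjusted p = 1.3e-05). Procr, the protein C receptor of endothelium, had values of 8.29, 7.67, 8.52 and 8.35 on the ductus arrays and 9.14, 9.30, 8.98 and 9.01 on the aorta arrays. It was lower in the ductus by a difference of -0.90 (1.87-fold, adjusted p = 0.0239). The endothelial markers above were lower in the ductus as well, and their part in the Procr value was not tested.

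Downstream of the receptors, 1 of 13 G protein alpha subunits was called. Gna14, a subunit of the Gq class, had values of 10.60, 10.66, 10.80 and 10.54 on the ductus arrays and 8.14, 8.23, 7.49 and 8.83 on the aorta arrays. The tissues were widely separated, with a difference of 2.48 ± 0.24 (SE), 5.57-fold higher in the ductus (adjusted p = 0.000489). Plcb1, a phospholipase C beta that Gq activates, had values of 5.66, 5.77, 5.87 and 6.11 on the ductus arrays and 6.70, 7.01, 6.90 and 6.71 on the aorta arrays. It was lower in the ductus without overlap, with a difference of -0.98 (1.97-fold, adjusted p = 0.00274), the 1 called gene of 10 phospholipase C, IP3 receptor and protein kinase C genes. Of 6 receptor kinases and arrestins 0 were called, and Grk4 had a difference of 0.84 (adjusted p = 0.0858).

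Enpp3, an ectoenzyme that hydrolyses extracellular nucleotides, the ligands of the P2 receptors, had values of 6.96, 7.44, 7.06 and 7.22 on the ductus arrays and 8.01, 8.10, 8.11 and 8.13 on the aorta arrays. It was lower in every ductus array, with a difference of -0.92 ± 0.122 (SE), 1.89-fold lower in the ductus (adjusted p = 0.0028). It was the 1 called of 11 genes for nucleotide release, nucleotide breakdown and adenosine reception, a list whose median was 0.03.

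**Figure D5:**
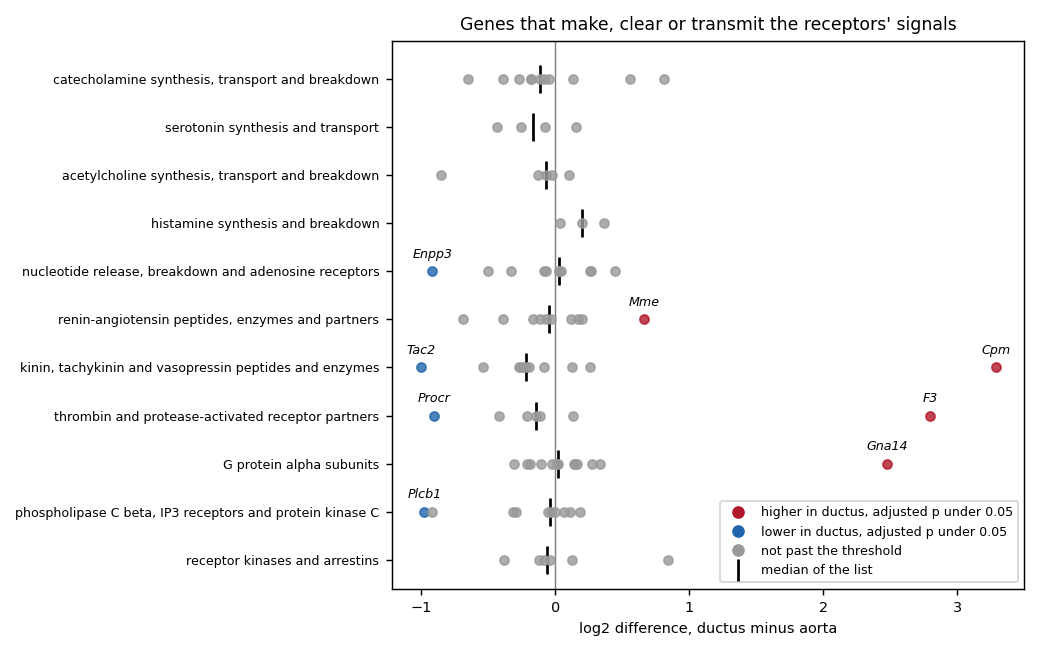
Log2 difference, ductus minus aorta (horizontal axis), of the 91 genes in 11 lists of ligand-handling and signalling genes, with a bar at each list's median. Red marks the 4 genes higher in the ductus (Cpm, F3, Gna14 and Mme) and blue the 4 lower (Tac2, Plcb1, Enpp3 and Procr).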

How the data were processed

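Total RNA was hybridised to Affymetrix arrays, 1 array per pool. The authors' deposited values are on the log2 scale. Partek 6.6 and RMA were used, per the submitters' processing notes. For neither tool are settings given in the sources used here. Values of 45101 probe sets ran from 1.74 to 13.87, none missing. Control probe sets (64) and those listed with several symbols (932) or not listed (9160) were left out. Each of 18193 genes kept its probe set of highest mean.

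Differences, ductus minus aorta, were tested by moderated linear models without covariates (R 4.3.3, limma 3.58.1, functions lmFit and eBayes, two-sided). P-values were adjusted by Benjamini-Hochberg over all genes, and called means an adjusted p under 0.05. They measure the spread between the pools. Receptor genes were named if called, at an unadjusted p under 0.05, among the 2 highest means of their family, or with the family's largest difference. Other receptor genes named (P2rx1, P2ry10b, Htr3a, Htr3b) are chromosomal neighbours, chosen after their values were seen. Pathway genes were named if called, and otherwise as a few of those the rule allowed. The members and lists were chosen with earlier results of these data known. On simulated data for this comparison (18193 genes, 200 changed), 70% of changes of log2 1 and 99% of log2 2 were recovered, with 10 false calls among 179. The simulated noise was normal and independent, with an SD per gene shared by both tissues. Outlying arrays and shifts in cell content were not simulated, so the rates on the real arrays may differ. Promoters came from RefSeq (GRCm38.p6) for 40 of the 52 genes. Alternatives covered scaling, low-value filters, the probe set rule, the threshold, the variance prior, a replicate block, weights per array and leaving out each array.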

Additional observations from a re-analysis of the deposited data

Results flagged for a closer look

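In 8 of 92 groups of 4 arrays (46 genes in both tissues), a single array stood apart from the other 3 by Dixon's 95% criterion, which sets the gap against the group's range. Chance gives such a gap in about 1 in 20 groups. Among the receptor genes, ductus replicate 1 was low for Adra1b (3.26, the others 3.60 to 3.65) and for Adra2c (3.35, the others 3.81 to 3.86). Aorta replicate 1 was low for Avpr1b (2.59, the others 2.88 to 2.89). Aorta replicate 2 was high for P2rx5 (7.66, the others 6.35 to 6.48). Among the pathway genes, ductus replicate 1 was high for Tph2 (2.37, the others 2.20 to 2.22) and low for Tac2 (2.74, the others 3.18 to 3.22). Ductus replicate 4 was high for F3 (7.08, the others 6.77 to 6.82), and aorta replicate 1 was low for Grk4 (2.97, the others 3.78 to 3.89).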

How the results depend on the processing

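For the 28 named receptor genes, 440 values under 17 alternatives gave 0 reversals of a called gene, 13 lost calls and 8 gained calls; 18 values of 7 genes that were not called changed sign. With an intensity trend and robust prior, 4 receptor genes were called higher in the ductus (Agtr1b, Agtr2, Htr4 and P2rx7), as were 4 at an adjusted p under 0.1. Leaving out 1 array at a time gave 1 to 2 genes called higher and 1 to 2 called lower. Agtr1b and P2rx5 were called in 8 of 8 of these fits, Agtr1a in 3 of 8, and P2rx7 in 1 of 8. Filters on low values did not test Agtr1b and called Agtr2 and P2rx7 higher. Over all genes, 702 were called (328 higher, 374 lower), 443 without aorta replicate 2 (242 higher, 201 lower) and 454 without ductus replicate 4 (240 higher, 214 lower). Called lower were 239 without ductus replicate 1 and 230 without ductus replicate 2. Same-numbered arrays did not deviate together (correlations -0.227 to -0.0676), so the numbers were not taken as pairs. Arrays of different number had correlations of -0.247 to 0.342, the highest between ductus replicate 1 and aorta replicate 4. A pairing under other numbers was not tested. With a replicate block, 2 receptor genes were called higher and 1 lower (P2rx5; Agtr1a had an adjusted p of 0.119), and 403 genes were called in all. Levels near the arrays' first quartiles limit what could be measured for 22 receptor genes.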
